A study of Schizosaccharomyces pombe with 5 samples.

Results

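A set of 94 mRNAs fell to at most 33.3% of its input level in every immunoprecipitation of a fission yeast experiment, with the antibody against the RNA-binding protein Slr1p and with non-immune IgG alike. Levels were CPM, the raw count of a gene per 1000000 counts of its library. A gene was taken in when it had at least 10 CPM in both input libraries, when both Slr1p values and the IgG value were each at most 33.3% of the lower input value, and when the higher Slr1p value exceeded 50% of the IgG value. Identifiers starting SPNCRNA were left out. Of the 6727 genes counted, 4257 had the input minimum and 94 met all clauses, a share of 2.21%. All 94 are annotated as protein-coding in RefSeq, and 73 have a gene symbol. The members were thus chosen by their CPM in all 5 libraries, so these values are a description and carry no test.

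The experiment asked which RNAs Slr1p binds. Slr1p is the Schizosaccharomyces pombe homolog of LARP1, an animal protein best known as a partner of TOP mRNAs, whose 5′ end is a run of pyrimidines. All 5 libraries came from wild-type cells of 1 strain, yAS99, grown in YES, a rich medium, at 32 °C and cross-linked with formaldehyde. Input was total RNA extracted with hot phenol (n = 2), the Slr1p immunoprecipitation used the antibody AB2756 (n = 2), and non-immune rabbit IgG served as the control (n = 1). Library totals were 64236988 and 62802923 counts for input, 63392249 and 65859940 for Slr1p, and 12882920 for IgG, which had no replicate. Each library pools many cells, so an mRNA level cannot be split into cells holding the mRNA and copies per cell. Each CPM value is a share of its own library. Input and immunoprecipitations also differ in how the RNA was recovered. Loss during recovery and lack of binding therefore cannot be told apart in a comparison with input.

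Most of the named proteins in the set work at membranes, by groups of function assigned by hand after the members were known. Genes outside the set were not grouped in this way. Whether the share of such proteins exceeds that among all genes was therefore not tested. Proteins bound for the endoplasmic reticulum (ER), the Golgi, the vacuole and the plasma membrane usually carry a hydrophobic signal or membrane-spanning segment. As it leaves the ribosome, that segment can be recognised by the signal recognition particle, which brings ribosome and mRNA to the ER membrane. Membrane-spanning segments are rich in leucine, isoleucine, valine, phenylalanine and methionine, whose codons all have a T as the middle base.

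The strongest hydrophobic stretches of 5 membrane proteins of the set illustrate this codon use, beside that of calmodulin (cam1), a soluble calcium sensor of the same set. These genes were picked as examples and do not span the set. Each line is the coding sequence, 5′ to 3′, of the window of 19 residues with the highest mean Kyte-Doolittle value, a scale on which hydrophobic residues are positive, from RefSeq assembly ASM294v3. Capitals mark codons with T as the middle base.
syb1: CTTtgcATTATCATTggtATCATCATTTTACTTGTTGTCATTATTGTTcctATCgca
erv29: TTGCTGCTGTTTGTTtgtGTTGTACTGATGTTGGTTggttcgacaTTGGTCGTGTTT
cor1: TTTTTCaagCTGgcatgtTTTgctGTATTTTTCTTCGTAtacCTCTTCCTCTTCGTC
vma9: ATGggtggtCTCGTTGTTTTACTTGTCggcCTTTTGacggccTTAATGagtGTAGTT
vrg4: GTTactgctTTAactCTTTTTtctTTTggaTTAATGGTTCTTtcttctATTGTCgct
cam1: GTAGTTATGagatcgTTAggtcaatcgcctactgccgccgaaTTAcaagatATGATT
The synaptobrevin syb1 had 15 such codons of 19 and a mean of 3.52, the highest of the set, over residues 97 to 115. The cargo receptor gene erv29 had 15 and a mean of 2.95, the cornichon family gene cor1 14 and 2.49, the vacuolar ATPase subunit gene vma9 13 and 2.46, and the GDP-mannose transporter gene vrg4 11 and 2.06. In cam1 there were 7, with a mean of 0.27. The median of this highest mean was 2.04 in the set and 1.31 over all protein-coding genes with the input minimum. Each window was chosen for its hydrophobicity, so its codons with a middle T follow from that choice and are not a separate result.

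Together the 94 mRNAs took 2.44% (95% Wilson interval 2.436 to 2.443%) and 2.16% (2.155 to 2.162%) of the counts of the input libraries. Their share was 0.566% (0.5643 to 0.568%) and 0.513% (0.511 to 0.5145%) in the Slr1p libraries and 0.426% (0.4227 to 0.4298%) in IgG. A large part of these pooled counts came from tif1 alone. It gave 396144 of 1566984 in the first input library, 103434 of 358866 in the first Slr1p library and 16766 of 54914 in IgG. The higher Slr1p value ran from 7.97% to 33.2% of the lower input value, with a median of 25.9%. The IgG value ran from 5.02% to 32.8%, with a median of 18.4%. Mean input levels ran from 17.3 to 5677.8 CPM, with a median of 113.4 CPM. The IgG counts behind single genes ran from 17 to 16766, with a median of 248.5, so the IgG value of the scarcest members rests on few reads.

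Each clause alone was commoner than the combination. Among the 4257 genes with the input minimum, 258 (6.06%) had both Slr1p values at most 33.3% of the lower input value, 414 (9.73%) had such an IgG value, and 100 (2.35%) had both. The last clause removed 6 of those 100. The edgeR quasi-likelihood fit over 6376 genes, with Benjamini-Hochberg adjustment, called 94 of 94 members lower in Slr1p than in input, where 34.2% of all genes were called lower and 35% higher. It called 94 of 94 lower in IgG than in input, where 36.5% of all genes were lower and 34.1% higher. Median log2 fold changes of the set were -2.17 for Slr1p against input and -2.64 for IgG against input, beside 0.03 and -0.06 for all genes tested. The rule fixed these counts and medians, and both comparisons share the input libraries.

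**Figure D1:**
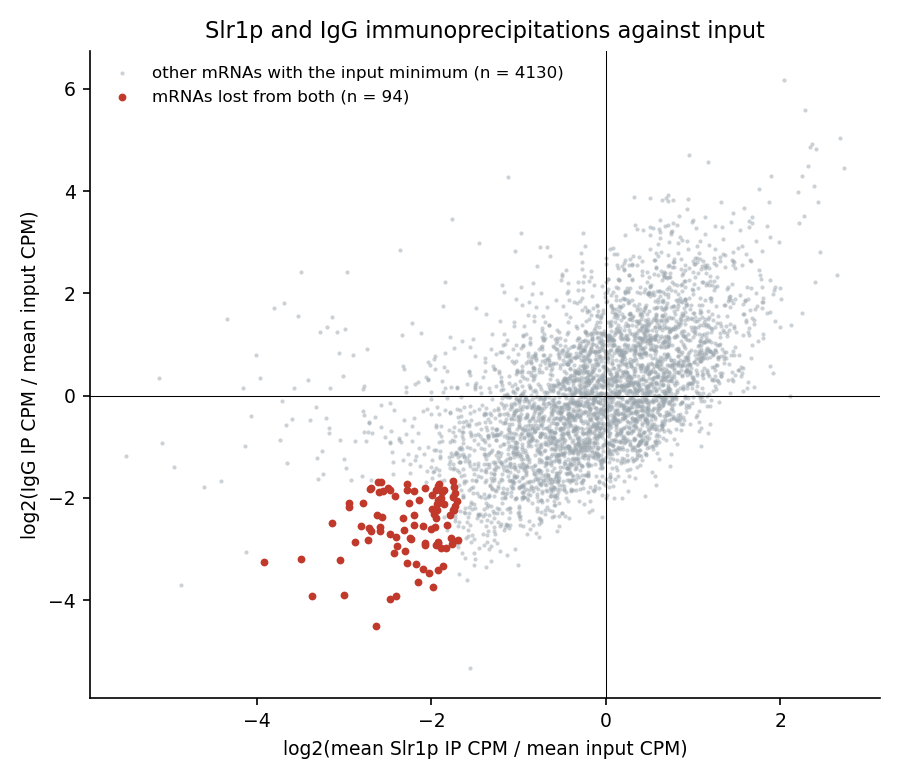
Each point is 1 protein-coding gene with at least 10 CPM in both inputs, placed by the log2 ratio of mean Slr1p CPM to mean input CPM (horizontal) and of IgG CPM to mean input CPM (vertical). For the vertical axis 0.5 was added to each IgG count. The 94 mRNAs of the set (red) fill the lower left corner, where the rule put them, and the other 4130 genes (grey) spread around the lines of no change.

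Vesicle traffic between the ER and the Golgi supplied 13 members, and 11 of them encode a hydrophobic stretch with a mean Kyte-Doolittle value of at least 1.6. The most abundant was arf1, for a small GTPase that starts coat assembly on Golgi membranes. It stood at 1612.5 and 1423.9 CPM in input, 303.8 and 303.6 CPM with Slr1p and 291.1 CPM with IgG. All 3 immunoprecipitations lay within a narrow band, about as far below input with as without the Slr1p antibody.

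The synaptobrevin syb1, a SNARE protein of vesicle fusion, stood at 431.1 and 332.2 CPM in input. It fell to 47.9 and 44.2 CPM with Slr1p and 41.1 CPM with IgG, a log2 fold change against input of -3.06 (SE 0.16) for Slr1p and -3.35 (SE 0.23) for IgG. The higher Slr1p value was 14.4% of the lower input value, the lowest of this group. Among the other SNARE genes, bet1, for a protein of ER-to-Golgi vesicles, stood at 58.8 and 60.2 CPM in input, 18 and 17.4 CPM with Slr1p and 8.23 CPM with IgG.

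Cargo selection into coated vesicles was represented by several receptors. The cornichon family gene cor1 stood at 608.3 and 515 CPM in input, 153.7 and 142.3 CPM with Slr1p and 52.8 CPM with IgG. The p24 family gene emp24 stood at 246.2 and 215.7 CPM in input, 68.3 and 58.9 CPM with Slr1p and 23.1 CPM with IgG. In both, the Slr1p libraries lay between input and IgG. The order turned in erv29, another cargo receptor gene, which stood at 132.7 and 126.8 CPM in input, 25.2 and 23.3 CPM with Slr1p and 33.4 CPM with IgG. For erv41, which encodes a COPII vesicle protein, the values were 82.5 and 71.1 CPM in input, 20.6 and 19.2 CPM with Slr1p and 14.7 CPM with IgG.

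Rab GTPases and their partners were represented as well. The mRNA of ypt2, a Rab GTPase of the secretory pathway, stood at 242.8 and 223 CPM in input, 45.4 and 38.3 CPM with Slr1p and 35.7 CPM with IgG. For yip3, annotated as binding Rab GTPases, input was 121.2 and 92.5 CPM, Slr1p 17.9 and 14.9 CPM and IgG 30.2 CPM. For tvp23, a putative transport protein, they were 74.8 and 65.3, 12.7 and 10.6, and 11.7 CPM. The IgG value of yip3 exceeded both Slr1p values, while that of tvp23 lay between them. The group also held rer1, hrf1 and SPAC644.13c.

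Glycosylation, GPI anchoring and ER processing supplied 9 members, all 9 with a hydrophobic stretch. The Golgi pyruvyl transferase gene pvg1, which modifies cell surface glycans, stood at 603.5 and 598.5 CPM in input. It reached 95.5 and 89.7 CPM with Slr1p and 171.9 CPM with IgG, so that both Slr1p values were lower than IgG. The GDP-mannose transporter gene vrg4, which supplies the Golgi with sugar donors, stood at 399.3 and 361.6 CPM in input, 38.3 and 35.3 CPM with Slr1p and 25.1 CPM with IgG. With log2 fold changes of -3.38 (SE 0.14) and -4.05 (SE 0.20), it was among the 5 lowest members in both immunoprecipitations.

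In the ER itself, swp1, a subunit of the oligosaccharyltransferase that attaches N-glycans, stood at 470.4 and 427.5 CPM in input, 105.6 and 93.4 CPM with Slr1p and 45.6 CPM with IgG. The mannosyltransferase gene alg3, which acts in building the N-glycan precursor, stood at 67.6 and 56 CPM in input, 15.9 and 13.5 CPM with Slr1p and 8.38 CPM with IgG. The signal peptidase subunit gene spc1 stood at 27.6 and 25.7 CPM in input, 6.81 and 5.82 CPM with Slr1p and 3.49 CPM with IgG. In these 3 the IgG value was the lowest of the 5 libraries. The group was completed by gpt2, which starts the same precursor, gaa1 of the GPI transamidase, the Golgi galactose nucleotide transporter gms1 and the mannan polymerase subunit anp1.

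Lipid and sterol metabolism supplied 13 members, 11 of them with a hydrophobic stretch. Of the enzymes that lengthen fatty acids, the enoyl reductase tsc13 stood at 517 and 439 CPM in input, 138.3 and 120.2 CPM with Slr1p and 60.6 CPM with IgG. The elongase elo1 stood at 371.9 and 349.7 CPM in input, 116.2 and 97.8 CPM with Slr1p and 91 CPM with IgG. At 33.2% of the lower input value, elo1 sat just inside the limit.

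Of the ergosterol pathway, erg26 stood at 384.6 and 346.4 CPM in input, 115 and 102.4 CPM with Slr1p and 77.5 CPM with IgG. The sterol reductase erg4 stood at 283.3 and 261.2 CPM in input, 83.7 and 75 CPM with Slr1p and 39.7 CPM with IgG. Both sterol genes kept the order input, Slr1p, IgG. Phospholipid synthesis was represented by ept1, of the CDP-alcohol phosphatidyltransferase family, at 465.8 and 461.2 CPM in input, 140.9 and 143.6 CPM with Slr1p and 111.8 CPM with IgG. The phosphatidylinositol synthase pis1, the phosphatidylserine synthase pps1 and the methyltransferase cho1 joined it, and sphingolipids were represented by the ORMDL family gene orm1, sgp1 and SPAPB1A10.07c. The remaining 2 were SPCC1672.09 and the acyl-CoA thioesterase the13.

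Mitochondria supplied 13 members, encoded in the nucleus, of which 6 have a hydrophobic stretch. The set held 3 subunits of the ATP synthase. The gene atp17, for a subunit of its membrane part, stood at 461.8 and 363.7 CPM in input, 71.2 and 61.5 CPM with Slr1p and 18.2 CPM with IgG. The IgG value, 5.02% of the lower input value, was the lowest of the set. The stator subunit gene atp4 stood at 608.8 and 555.2 CPM in input, 178.2 and 163.9 CPM with Slr1p and 78.4 CPM with IgG. For atp14 the values were 329.7 and 283.9 CPM in input, 62.9 and 53.3 CPM with Slr1p and 20.3 CPM with IgG. Both Slr1p values exceeded IgG in all 3 subunits.

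The gene tim18, annotated to the TIM22 inner membrane import complex and succinate dehydrogenase, had the lowest Slr1p values against input of the whole set. It stood at 498.5 and 442.7 CPM in input, 35.3 and 27.1 CPM with Slr1p and 49.6 CPM with IgG, log2 fold changes of -3.93 (SE 0.16) and -3.37 (SE 0.21). The translocase subunit gene tim23 stood at 304.5 and 244.6 CPM in input, 76.7 and 68.1 CPM with Slr1p and 37.6 CPM with IgG. These genes differed in order: tim18 was lower with Slr1p than with IgG, and tim23 higher.

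The succinate dehydrogenase iron-sulfur subunit gene sdh2 stood at 589.5 and 537.1 CPM in input, 128.5 and 111 CPM with Slr1p and 80.8 CPM with IgG. The anion carrier gene oac1 stood at 459.8 and 431.3 CPM in input, 126.8 and 116 CPM with Slr1p and 120.8 CPM with IgG. The glycine decarboxylase subunit gene gcv3 stood at 325.7 and 270.4 CPM in input, 82.2 and 71.2 CPM with Slr1p and 50 CPM with IgG. Of these, oac1 had overlapping Slr1p and IgG values. The other mitochondrial members were SPCC417.16, sym1, the carriers mme1 and pet802, and rcf1, a factor of cytochrome c oxidase.

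The vacuolar ATPase, the proton pump of the vacuole, and membrane transporters supplied 7 members, all 7 with a hydrophobic stretch. The proteolipid subunit gene vma16 stood at 149 and 128.9 CPM in input, 26.5 and 25.4 CPM with Slr1p and 16.5 CPM with IgG. The small subunit gene vma9 stood at 134.6 and 106.1 CPM in input, 32.2 and 28.8 CPM with Slr1p and 8.93 CPM with IgG. Both belong to the part of the pump that sits in the membrane. The transporters were the zinc transporters zip2 and zip3, the vacuolar amino acid transporter fnx2, SPBC405.03c and SPAPB1E7.08c.

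A further 11 members encode other proteins at or near membranes, 8 of them with a hydrophobic stretch. The tail-anchored plasma membrane protein gene uvi15 stood at 420.2 and 381.9 CPM in input, 100.3 and 96.4 CPM with Slr1p and 36.2 CPM with IgG. The ER-shaping protein gene tts1 stood at 373.6 and 358.3 CPM in input, 113.9 and 112.9 CPM with Slr1p and 51.9 CPM with IgG. The BAR adaptor gene hob3, whose protein binds curved membranes from the cytosol, stood at 325 and 304.5 CPM in input, 68.2 and 59.1 CPM with Slr1p and 38.3 CPM with IgG. The first 2 had close Slr1p replicates, and all 3 kept the order input, Slr1p, IgG.

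The inner nuclear membrane protein gene bqt3 stood at 136.2 and 118.8 CPM in input, 16.8 and 14.9 CPM with Slr1p and 8.54 CPM with IgG, and was among the 5 lowest in both immunoprecipitations. The palmitoyltransferase gene swf1 stood at 88.9 and 83.2 CPM in input, 27.6 and 24.1 CPM with Slr1p and 19.2 CPM with IgG, just inside the limit. A second palmitoyltransferase, erf2, was in the set too, with sbg1, rho4, dsc4 and lmb1 among others.

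Cytosolic and nuclear proteins supplied 16 members, of which 2 have a hydrophobic stretch. The most abundant mRNA of the whole set was tif1, for the RNA helicase eIF4A of translation initiation. It stood at 6166.9 and 5188.6 CPM in input, 1631.7 and 1513.3 CPM with Slr1p and 1301.4 CPM with IgG. Calmodulin, cam1, stood at 274.2 and 260.3 CPM in input, 57.7 and 49.4 CPM with Slr1p and 43.1 CPM with IgG. For tbp1, the TATA-binding protein of transcription initiation, input was 307.5 and 316.3 CPM, Slr1p 70.8 and 65.3 CPM and IgG 85.9 CPM. Here IgG exceeded both Slr1p values.

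The GTPase-interacting protein gene SPCC663.18 was second lowest of the set with Slr1p, at 223.6 and 205.6 CPM in input, 20.8 and 17.3 CPM with Slr1p and 23.5 CPM with IgG. The WW domain-binding protein gene SPAC29B12.11c stood at 32 and 32 CPM in input, 4.13 and 3.14 CPM with Slr1p and 5.67 CPM with IgG. The pyridoxal reductase gene SPAC3A11.11c stood at 67 and 64.2 CPM in input, 21.2 and 18.1 CPM with Slr1p and 19 CPM with IgG. The first 2 were lower with Slr1p than with IgG, and the last overlapped. The group further held cdc2, the cyclin-dependent kinase of the cell cycle, igo1, npl4, ank1, spa1, lsm2, SPCC1840.07c, SPBC26H8.13c, and 2 factors of transcription, toa2 and med10.

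The remaining 12 members have no characterised function in the annotation used, and 6 of them encode a hydrophobic stretch. The spore coat protein gene isp3 stood at 25.7 and 17 CPM in input, 3.64 and 4.02 CPM with Slr1p and 1.32 CPM with IgG, the last from 17 reads. The gene mug57, from a collection of genes raised in meiosis, stood at 29.5 and 31.1 CPM in input, 4.64 and 3.2 CPM with Slr1p and 7.06 CPM with IgG. SPAC4A8.02c stood at 17.5 and 19.3 CPM in input, 5.66 and 5.3 CPM with Slr1p and 5.74 CPM with IgG. These are scarce mRNAs, and the 2 input values of isp3 differed more than those of the other 2. The others were SPCC569.06, SPBPJ4664.05, SPCC24B10.06, SPAC22H10.02, SPBC18E5.09c, SPCC622.01c, SPAC652.01, SPCC1919.04 and SPBC1271.08c.

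**Figure D2:**
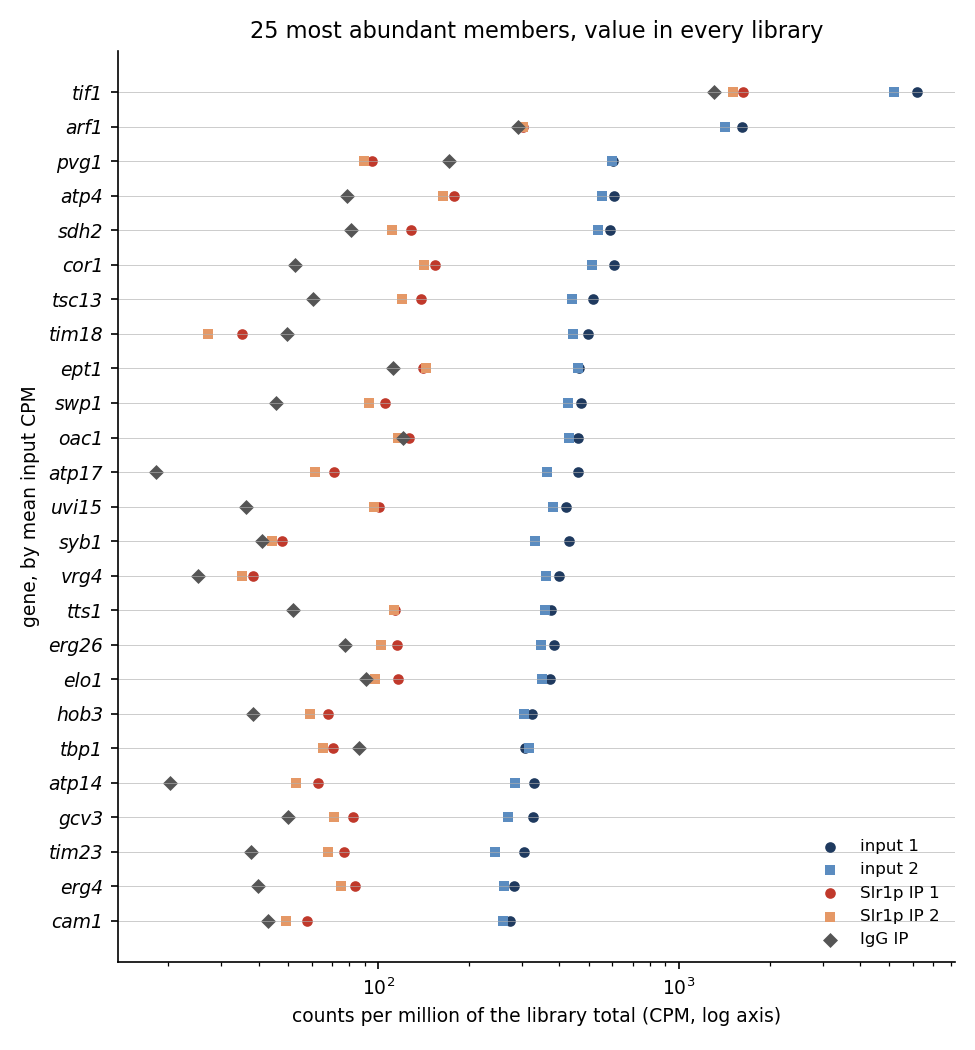
The 25 members with the highest mean input level are shown from top to bottom, with 1 symbol per library on a log axis of CPM. The input symbols stand apart to the right for every gene, while the Slr1p and IgG symbols change order between genes, as in atp17 (IgG 18.2 CPM, Slr1p 71.2 and 61.5 CPM) and tim18 (IgG 49.6 CPM, Slr1p 35.3 and 27.1 CPM).

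The limit of 33.3% cut through a continuous range of values. Just inside it lay elo1, erg26, swf1, SPAC3A11.11c and SPAC4A8.02c, whose larger immunoprecipitation value was between 32.8% and 33.2% of the lower input value. Just outside it lay rcd1, of the CCR4-NOT complex that shortens poly(A) tails, and the mitochondrial ribosomal protein gene mrp51. The mRNA of rcd1 stood at 92 and 78.8 CPM in input, 22.1 and 18.8 CPM with Slr1p and 26.3 CPM with IgG, that of mrp51 at 71.8 and 74.1, 19.1 and 17.6, and 24 CPM. Both missed the limit at 33.4% through IgG.

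The wtf element wtf14 stood at 59.3 and 51 CPM in input, 17.1 and 15.6 CPM with Slr1p and 12.1 CPM with IgG, and reached 33.4% with Slr1p. The arrestin-related gene art1 stood at 56 and 51, 15.5 and 14.1, and 17.1 CPM, and reached 33.5% with IgG. The glutathione transferase gene gst2 stood at 194.7 and 207.7, 65.4 and 55.6, and 36.9 CPM, and reached 33.6% with Slr1p.

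The pathways that the members belong to were examined without them, since the rule fixed the members' direction. Of 40 other genes of ER translocation, glycosylation and folding, edgeR called 33 lower and 2 higher in Slr1p than in input, with a median log2 fold change of -0.96. In IgG against input 39 were lower and 1 higher, with a median of -1.52. Of the 6282 tested genes outside the set, 33.3% were lower and 35.5% higher with Slr1p (median 0.05), and 35.5% lower and 34.6% higher with IgG (median -0.04), shares against which the counts of each list are to be read. Of 55 other genes of ER-to-Golgi and vesicle transport, 28 were lower and 14 higher with Slr1p (median -0.34), and 29 lower and 17 higher with IgG (median -0.50). Both lists were patterns on gene symbols, and their contents mix. The first also holds vesicle and cargo genes, such as erp2, erv25, erv46, erv14 and erp5 and the members emp24, erv29 and erv41. The second holds the signal peptidase gene sec11 and the dolichol kinase gene sec59.

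From the first of these lists some genes that encode parts of 1 channel are given. They were chosen after their values were seen and do not span the list. The translocation channel gene sec61 stood at 247.7 and 243.5 CPM in input, 94.7 and 84.7 CPM with Slr1p and 63 CPM with IgG, lower with Slr1p by a log2 fold change of -1.46 (edgeR adjusted p = 4.34e-08). The gene sbh1, for a small subunit of the same channel, stood at 389.9 and 320 CPM in input, 472.7 and 493.8 CPM with Slr1p and 162.8 CPM with IgG. Its log2 fold change with Slr1p against input was 0.44 (edgeR adjusted p = 0.0198). The transcript of sbh1 has 393 bases and that of sec61 1808. Both Slr1p values lay below input for sec61 and above it for sbh1, and the IgG value lay below input for both. Another subunit gene, sss1, stood at 259.1 and 222.6 CPM in input, 285.4 and 297.3 CPM with Slr1p and 124.1 CPM with IgG. Its transcript has 356 bases, and its log2 fold change with Slr1p against input was 0.27 (edgeR adjusted p = 0.101).

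Of the 12 other vacuolar ATPase genes, 10 were lower and 2 higher with Slr1p than in input (median -0.51), and 9 were lower and 0 higher with IgG (median -1.46). The 26 other genes of fatty acid and sterol synthesis had 12 lower and 6 higher with Slr1p (median -0.23), and 15 lower and 6 higher with IgG (median -0.67). The 47 other genes of the respiratory chain and ATP synthase had 22 lower and 13 higher with Slr1p (median -0.26), and 30 lower and 8 higher with IgG (median -0.85). The 25 other mitochondrial import genes had 8 lower and 12 higher with Slr1p (median 0.07), and 15 lower and 6 higher with IgG (median -0.57). Of the 27 initiation factor genes other than tif1, 8 were lower and 15 higher with Slr1p (median 0.39), and 14 lower and 11 higher with IgG (median -0.46). The shares lower with Slr1p, 32% of the import and 29.6% of the initiation factor genes, lay near the 33.3% of all genes outside the set. In every one of these 7 lists the median was lower with IgG than with Slr1p.

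Sequence features that the rule did not use were compared with those of the 4224 protein-coding genes with the input minimum. A hydrophobic stretch was encoded by 60 of 94 members (63.8%), against 29.1% of those genes. At a limit of 1.8 the shares were 58.5% and 20.8%. The median of the highest 19-residue mean was 2.04 in the set and 1.31 over all. The members' proteins were short, with a median of 228.5 residues against 402, and their coding sequences had a median of 688.5 bases against 1209.

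The annotated 3′ UTRs were long beside these short coding sequences. Among the 92 members with an annotated 3′ UTR its median length was 572 bases (quartiles 401.2 and 753.5), against 260 bases (150 and 451.5) over all. A 3′ UTR of at least 500 bases was present in 55 members (59.8%) and in 21.6% of all genes. The 3′ UTR made up a median of 40% of the members' transcripts and 16.6% of all transcripts. The 5′ UTRs of the set were short, with a median of 53.5 bases against 96. Whole transcripts had a median of 1432.5 bases against 1774.5, so the set is not one of long mRNAs.

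**Figure D3:**
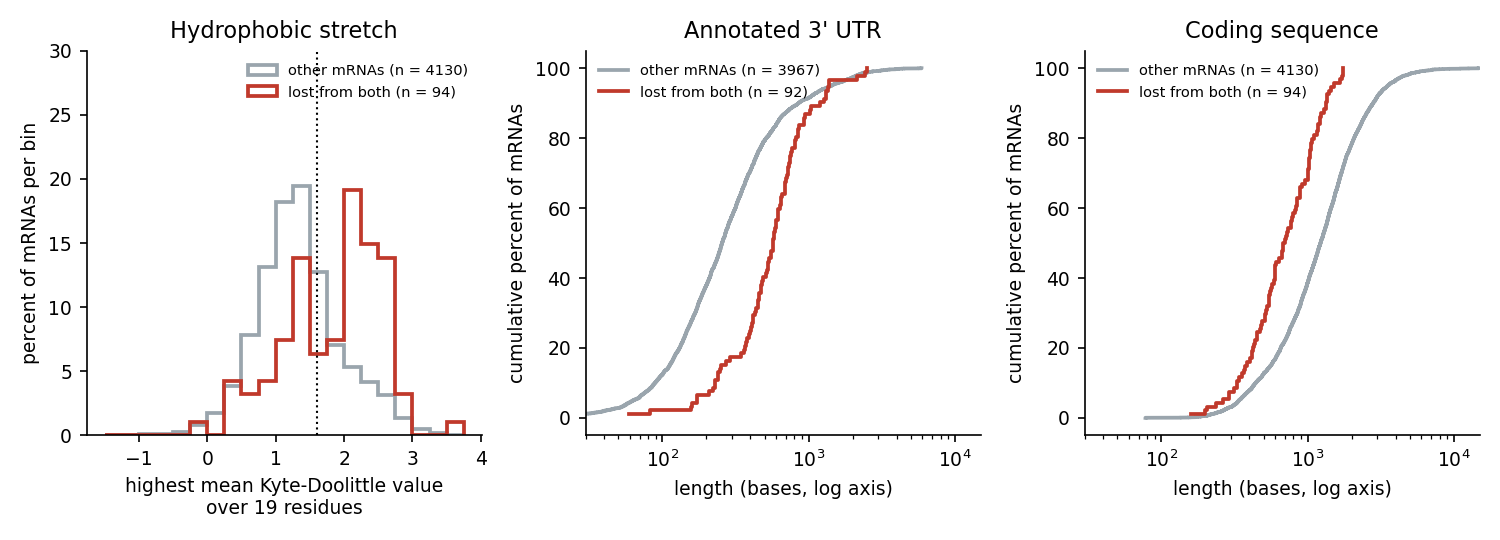
The left panel gives the percent of mRNAs in each bin of the highest mean Kyte-Doolittle value over 19 residues, with the limit of 1.6 dotted, and the other panels give the cumulative percent of mRNAs by the length of the annotated 3′ UTR and of the coding sequence in bases, on log axes. The 94 members (red) lie to the right of the other mRNAs (grey) in hydrophobicity and in 3′ UTR length (median 572 bases) and to the left in coding length (median 688.5 bases).

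The 2 features were counted in each of the 8 function groups, with no test between groups. Of the 16 cytosolic and nuclear members 2 had a hydrophobic stretch and 12 a 3′ UTR of at least 500 bases. Of the 13 members of vesicle transport 11 had the one and 11 the other. The lipid and sterol members had 11 of 13 and 5 of 13, the ATPase and transporter members 7 of 7 and 3 of 7, and the glycosylation and ER processing members 9 of 9 and 4 of 9. The mitochondrial members had 6 of 13 and 4 of 13, fewer than not in both features. The other membrane-associated members had 8 of 11 and 7 of 11, and the uncharacterised 6 of 12 and 9 of 12. Median 3′ UTR lengths ran from 273 bases in the ATPase and transporter group to 693.5 bases in the uncharacterised.

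Other features were closer to those of all genes. GC content over the coding sequence had a median of 39.9% in the set and over all, and over the transcript 36.3% and 37.4%. Members without introns made up 44.7%, against 49.9%. The set was spread over chromosomes I, II and III with 37, 36 and 21 members, or 39.4%, 38.3% and 22.3%, against 45.9%, 36.9% and 17.3% of all genes. The transcript overlapped that of a coding gene on the other strand in 24 members (25.5%) and in 38.7% of all genes. Whether the counting used strand is not given in the sources used here, so reads of such pairs may have been shared.

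Short motifs were searched in the 3′ UTRs on the sense strand alone, with overlapping matches counted. TGTANATA, the core of Puf protein sites, occurred 0.184 times per 1000 bases in the set and 0.257 times over all, and ATTTA, the core of AU-rich elements, 4.37 and 4.51 times. A match describes letters and not a site in use.

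The 5′ ends were read because LARP1 is known for TOP mRNAs. A run of at least 5 pyrimidines that starts at base 1, 2 or 3 of the annotated transcript was present in 10 of the 90 members with an annotated 5′ UTR (11.1%), and in 11% of all genes. The first 15 bases of 4 of those 10 members and of the 2 most abundant members, which have no such run, are given 5′ to 3′ from RefSeq assembly ASM294v3, with the run in capitals. The 4 shown have the longest runs of the 10. Runs of others, such as that of npl4, just reach 5 bases.
zip3: aCCTTCCCCTTaaac
yip3: aTCCTTTCCCTatat
toa2: gTCCTCTTCCaacca
SPCC622.01c: CTCCCTCTTTactca
tif1: aacccactcacctag
arf1: accaaaaccactacc
Among these only SPCC622.01c has its run at base 1. Annotated starts may differ from the true start by some bases, which was not examined.

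The hydrophobic stretch and the long 3′ UTR were then crossed over all genes with an annotated 3′ UTR. Without a stretch and under 500 bases of 3′ UTR, 13 of 2272 genes were members (0.572%), and the median log2 ratio of mean Slr1p to mean input CPM was 0.15. With a long 3′ UTR alone 20 of 608 were members (3.29%), with a median of -0.57. With a stretch alone 24 of 909 were members (2.64%), with a median of -0.33. With both, 35 of 270 were members (13%), with a median of -1.16. The IgG ratios had the same order at the ends, with medians of 0.06, -0.14, -0.12 and -0.68. Whole transcripts differed between the classes too, with median lengths of 1498.5, 2317.5, 2020 and 2444 bases in the same sequence. Transcript length and the 2 features were not separated here.

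With the members left out, the Slr1p medians of these 4 classes were 0.15, -0.51, -0.31 and -1.01, and the IgG medians 0.07, -0.08, -0.09 and -0.25. The Slr1p medians therefore hardly rested on the members, whereas the IgG median of the class with both features was -0.25 in place of -0.68. No test was made, since genes are not replicates.

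By finer steps of 3′ UTR length, members were most frequent at 501 to 750 bases with a hydrophobic stretch, where 23 of 132 genes (17.4%) belonged. The median log2 ratio there was -1.30 for Slr1p and -0.87 for IgG. The medians of these finer steps include the members, which the rule placed low in both, and were not computed without them. At 751 to 1000 bases the 41 genes with a stretch had medians of -1.51 and -0.80. Over 1000 bases the 97 genes with a stretch had medians of -0.87 and -0.06, so the longest 3′ UTRs were not the lowest. Without a stretch the lowest Slr1p median was -0.78, in the 95 genes at 751 to 1000 bases, and the lowest IgG median -0.36, in the 260 genes at 501 to 750 bases.

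**Figure D4:**
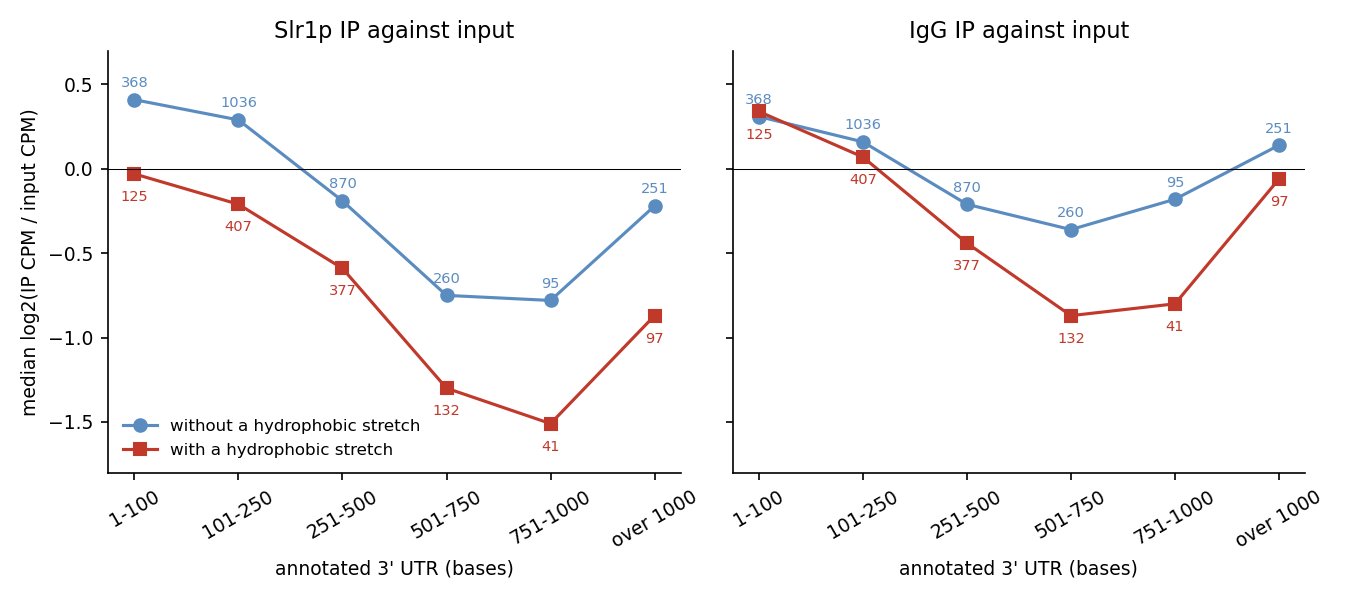
Points are medians over genes of log2(immunoprecipitation CPM / mean input CPM), for Slr1p on the left and IgG on the right, by length of the annotated 3′ UTR in bases and by presence of a hydrophobic stretch, with the number of genes beside each point. Members, which the rule placed low, are included in the medians, and 0.5 was added to each IgG count. Genes with a stretch (red) lie below those without (blue) except for IgG at the shortest 3′ UTRs (0.34 and 0.31), and both curves are lowest between 501 and 1000 bases.

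Between the Slr1p and IgG immunoprecipitations the members were divided. Mean Slr1p CPM exceeded IgG in 60 of 94, where 47.1% of the genes with the input minimum did so. Both Slr1p values exceeded IgG in 56 members (43.3% of those genes), and both lay below it in 26 (49.7%). The log2 ratio of mean Slr1p to IgG CPM ran from -0.93 to 1.86 with a median of 0.23, against -0.08 over all genes with the input minimum. In the edgeR fit 41 members were called higher with Slr1p than with IgG and 11 lower, where 34% of all genes were higher and 32.3% lower. The median log2 fold change was 0.34 for members and 0.07 for all genes, and the members' median became 0.17 after correction of every library for transcript length and GC. The last clause of the rule removed genes far below IgG, so these counts support no direction, and the single IgG library gives no replicate check. The numbers were 32 higher and 4 lower without the second Slr1p replicate, and 31 and 18 after that correction.

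Of the 8 function groups, 6 had a median log2 ratio of Slr1p to IgG above 0. Mitochondrial members had a median of 0.57, with 10 of 13 above IgG, and the ATPase and transporter members 0.56, with 5 of 7 above. The other membrane-associated members had 0.43 and 8 of 11, lipid and sterol members 0.35 and 10 of 13, glycosylation and ER processing 0.33 and 6 of 9, and vesicle transport 0.23 and 9 of 13. The cytosolic and nuclear members had -0.08 and 7 of 16, and the uncharacterised -0.13 and 5 of 12. The highest ratios were 1.86 in atp17 and 1.77 in vma9, and the lowest was -0.93 in med10.

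By transcript length the same ratio is given as a description, since the values that chose the members enter it. In the 47 members of at most 1432.5 bases its median was 0.44 on the log2 scale, and 37 were above IgG. In the 47 longer members it was -0.01, and 23 were above IgG. Across the 94 members, which share the same 5 libraries, Pearson's r of the log2 ratio was -0.31 with log2 transcript length, -0.10 with log2 coding length and 0.29 with log2 mean input CPM. Spearman's rho was -0.33, -0.04 and 0.34.

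Differences between replicates ran the same way in most members. The first input library exceeded the second in 81 of 94 members (86.2%) but in 25.9% of all genes, with median log2 ratios of 0.15 and -0.19. The first Slr1p library exceeded the second in 90 members (95.7%) and in 89.1% of all genes. The part of this gap in membership was not tested, and the rule used the lower input value, which is the second for most members.

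Neighbouring sets differed from the members in some features and resembled them in others. The 158 genes lost from Slr1p but not from IgG, of which 157 are protein-coding, had a median transcript of 2116 bases, a median 3′ UTR of 705 bases and a hydrophobic stretch in 41.4%. The 314 genes lost from IgG but not from Slr1p, 312 of them protein-coding, had 1084.5 bases, 321 bases and 38.8%. The members lay between them in transcript length (1432.5 bases) and 3′ UTR (572 bases), and above both in the share with a stretch (63.8%). The 25 genes raised at least 3-fold over the higher input value in both immunoprecipitations had a median 3′ UTR of 145 bases and a stretch in 1 gene (4%). A 3′ UTR of at least 500 bases was present in 75.2% of the genes lost from Slr1p but not IgG, and in 59.8% of members. The genes lost from IgG but not Slr1p had medians of 630 coding bases, 209 residues and 45 bases of 5′ UTR. Their first input library exceeded the second in 75.3%. The members had 688.5 coding bases, 228.5 residues, 53.5 bases of 5′ UTR and 86.2%, so these traits are not particular to them. None of this was tested.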

How the data were processed

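The values were raw read counts per gene, which the authors deposited as 1 table per library with the same 6727 genes. Libraries were strand-specific (NEBNext Ultra II Directional) with paired reads of 50 bp, per the labels' protocols. The submitters' processing notes name STAR 2.6.0c, HTSeq 0.6.1p2, bcl2fastq 2.20, Trim Galore and FastQC 0.11.5, with no role or order. Neither the build and annotation nor the strand setting and the handling of multiply mapped reads is given in the sources used here. Genes with near copies are therefore uncertain, and no coordinates are printed.

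Groups and replicate numbers came from the sample titles, which call the replicates biological. Levels are CPM of the library total. For log2 ratios of IgG to input by class and step of 3′ UTR length, 0.5 was added to each IgG count. Tests were edgeR 4.0.16 quasi-likelihood fits in R 4.3.3, scaled by TMM, with the default filter by group, 1 mean per group over all 5 libraries and Benjamini-Hochberg adjustment at 0.05. In all 6376 genes were tested and 351 filtered out. Residual degrees of freedom were 2, prior ones 13.5, and the common coefficient of biological variation 0.101. The fit was tested on simulated data. IgG, with 1 library, took its spread from the replicated groups. Wilson intervals cover counting error only, since reads that carry no molecular identifiers can be copies of 1 molecule.

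Names, products, lengths and sequences came from RefSeq ASM294v3, which may not be the authors' annotation. It matched 6512 of the identifiers and not the other 215. The members and the 22 gene lists were chosen with earlier results of these data known. The lists were patterns on gene symbols, with 21 symbols of another annotated function removed. The 8 function groups and the 3′ UTR limit were set after the members were seen. By rule, 49 genes were named with values, namely the 25 members highest in input, the 5 lowest with Slr1p and with IgG, the 5 nearest the limit on each side, and members of a list. Outside that rule sec61, sbh1, sss1, spc2, ema19 and are2 were named after their values were seen. Of the lists, 7 with members are described, 1 (genes named mug or meu) holds mug57, and the other 14 hold 0 members. Alternatives were DESeq2 1.42.0, library totals, no filter, a length and GC trend removed, other limits of the rule, each replicate left out and a replicate block. Of the members, 1 is counted but not reported here by name.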

Additional observations from a re-analysis of the deposited data

How the results depend on the processing

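The number of members followed the ratio limit: 33 genes at 1/4 and 345 at 1/2, beside 94 at 1/3. It was between 87 and 100 with an input minimum of 5 or 20 CPM, TMM scaling, totals of nuclear coding genes or no last clause, and between 96 and 131 with a replicate left out. A pyrimidine run starting at base 1 alone was present in 1.11% of members, which is SPCC622.01c only, and in 0.448% of all genes. At 3′ UTR limits of 400 and 750 bases, chosen after the data were seen, 75% and 26.1% of members and 30.4% and 11.9% of all genes qualified. The set's median log2 fold change of IgG against input, -2.64, became -2.24 once a length and GC trend was taken out and ranged from -2.72 to -2.47 with a replicate left out. That of Slr1p against IgG, 0.34, became 0.17 with the trend removed and 0.23 with library totals, and ranged from 0.27 to 0.36 with a replicate left out. That of Slr1p against input, -2.17, ranged from -2.28 to -2.05 with a replicate left out.

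Members called higher with Slr1p than with IgG, 41 here, numbered from 29 to 51 over the alternatives, and those called lower, 11 here, from 4 to 18. For the named members 748 values were recomputed, of which 554 stayed within the spread between replicates, 194 moved beyond it and 0 changed sign. For IgG against input that spread came from the input libraries alone. The causes were not tested. Over genes, the replicate difference in input and that in Slr1p had a correlation of -0.0483. With so few libraries this value cannot show whether same-numbered samples are pairs. The main fit did not pair them. With a replicate block the median of Slr1p against input was -2.17, with 2081 genes lower and 2126 higher, and all 94 members remained lower. The smallest IgG counts, from 17 reads, limit the precision of scarce members.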

Other observations

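The 6 genes that only the last clause kept out stood lower with Slr1p than with IgG, an order fixed by that clause. The signal peptidase subunit gene spc2 stood at 17.1 and 18 CPM in input, 0.663 and 0.774 CPM with Slr1p and 5.05 CPM with IgG. The gene ema19 stood at 52.6 and 45.3 CPM in input, 1.66 and 1.69 CPM with Slr1p and 3.73 CPM with IgG. The sterol acyltransferase gene are2 stood at 104.7 and 101.3 CPM in input, 14.9 and 12.2 CPM with Slr1p and 32.9 CPM with IgG. The others were mrx11, rmp1 and SPAPB2B4.07. Of the 6, 4 encode a hydrophobic stretch, and 2 have an annotated 3′ UTR in the annotation used. These genes were chosen after their values were seen.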
